A study of Mus musculus with 4 samples.

Results

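The genes described here are interleukin 2 and the receptor chains that bind it or share the common gamma chain, measured by RNA sequencing of mouse Th17 cells polarized in vitro. They were taken by gene name as a fixed family of 9 genes, Il2, Il2ra, Il2rb, Il2rg, Il15ra, Il7r, Il4ra, Il21r and Il9r, out of 52636 genes in the deposited table, and all 9 names were found once. The genotype PP2A WT had 2 libraries and PP2A cKO had 2, all of the C57BL/6 strain. PP2A removes phosphate from serine and threonine residues and is made of several subunits. Which subunit was targeted, the Cre driver and the age of the mice are not given in the labels. Naive T cells of both genotypes had been grown for 2 days with irradiated antigen presenting cells, 3 per T cell, in 2 µg/ml of anti-CD3, 2 µg/ml of anti-CD28, IL-6 at 20 ng/ml, TGFβ1 at 2 ng/ml and 10 µg/ml of blocking antibody to each of IL-4 and IFNγ. All cells then received PMA (50 ng/ml) and ionomycin (500 ng/ml) for 4 h, so every library represents restimulated cells. The study asked whether PP2A is needed for Th17 differentiation. The labels speak of biological replicates but not of separate mice or cultures. The p-values therefore weigh differences against library-to-library spread, which may be technical.

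Interleukin 2 is made by T cells after antigen receptor signalling and acts on the same and neighbouring T cells. Its receptor joins an alpha chain (Il2ra, CD25), which raises affinity, to a beta chain (Il2rb) and the common gamma chain (Il2rg), which carry the signal through JAK1, JAK3 and STAT5. The common gamma chain also pairs with the private chains for IL-4, IL-7, IL-9, IL-15 and IL-21. In T cells, IL-2 signalling through STAT5 restrains Th17 differentiation, whereas IL-21 acts through STAT3 to favour it.

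Depth was similar, with 18517487 to 20387948 gene-assigned reads per library. Ppp2ca, the main PP2A catalytic subunit gene, had 42.2 and 50.1 FPKM (fragments per kilobase of gene, scaled for library depth) in WT and 41.8 and 34.5 FPKM in cKO (limma, adjusted p = 0.36). Both cKO values lay below both WT values, by a small margin in cKO replicate 1. The PP2A genes Ppp2cb and Ppp2r1a overlapped between genotypes (limma, adjusted p = 0.754 and 0.91). Since the targeted subunit is not named, these levels do not check the labels. All 7 T cell markers were expressed, with a summed level of 983 and 1000.1 FPKM in WT and 928 and 974 FPKM in cKO. They did not move one way. Both cKO libraries lay above both WT libraries for 4 of them and below for 2, against 27.2% and 28.7% of all tested genes. None was called by limma, against 1.07% of all. Cd4 had 104 and 105 FPKM in WT and 128 and 126 FPKM in cKO, whereas Zap70 had 264 and 257 FPKM in WT and 156 and 184 FPKM in cKO (limma, adjusted p = 0.0812; voom, adjusted p = 0.0356). The summed level of 5 Th17 markers was 3813 to 4154 FPKM in WT and 2939 to 3040 FPKM in cKO. The 8 B cell markers summed to 7.68 and 8.75 FPKM in WT and 4.60 and 5.10 FPKM in cKO. Most of that was Ighm, and the other 7 genes were under 1 FPKM in every library. The 8 macrophage and monocyte markers summed to 1.29 to 2.27 FPKM over the 4 libraries and the 5 dendritic cell markers to 0.445 to 0.654 FPKM. Of the 5 NK cell markers Ncr1 and Klrb1c were at 0 in every library and Klrd1 made up nearly all of the summed 3.73 and 4.41 FPKM in WT and 5.61 and 4.08 FPKM in cKO. Of the CD8 T cell markers Cd8a stayed under 1 FPKM, while Cd8b1 had 7.06 and 7.91 FPKM in WT and 9.03 and 9.84 FPKM in cKO. The part of these cells in the results below was not tested. In such bulk libraries fewer cells of a type and less RNA per cell cannot be told apart.

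Il2 was by far the most abundant transcript of the family and the one with the highest difference between the genotypes. Il2 (chromosome 3, 37120523 to 37125959, minus strand, GRCm38) had 2726 and 1774 FPKM in WT replicates 1 and 2 and 4319 and 4829 FPKM in cKO replicates 1 and 2. Both cKO libraries lay above both WT libraries, and the WT libraries differed more from each other than the cKO libraries did. The mean was 2250 ± 673 FPKM in WT and 4574 ± 361 FPKM in cKO (SD, n = 2), a 2.03-fold ratio of means, and single pairs of libraries gave ratios from 1.58 to 2.72. The log2 fold change of FPKM + 1 was 1.05 ± 0.23 (SE; 95% interval 0.48 to 1.63), and it missed the threshold of 0.05 (limma, adjusted p = 0.0935 over all genes tested). It passed when limma voom was run on read counts derived back from FPKM (log2 fold change 1.06, adjusted p = 0.0338). Over 17 alternative settings the adjusted p ran from 0.0338 to 0.492. With 2 libraries against 2, an exact two-sided permutation test of 1 gene cannot give a p under 0.333, which is the value Il2 had.

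The scale of Il2 expression sets it apart from its receptors. Il2 ranked 5 and 8 among all genes by FPKM in WT replicates 1 and 2, and 3 and 2 in cKO replicates 1 and 2. It took 0.315% and 0.209% of the gene-assigned reads in WT and 0.492% and 0.549% in cKO. Relative to Il2ra in the same library, the Il2 level was 22.8 and 14.3 times as high in WT and 33.5 and 36.2 times as high in cKO. The value of Il2 without WT replicate 2, the library with the least Il2, was 0.74 on the log2 scale (adjusted p = 0.492), and without WT replicate 1 it was 1.36 (adjusted p = 0.0991).

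**Figure D1:**
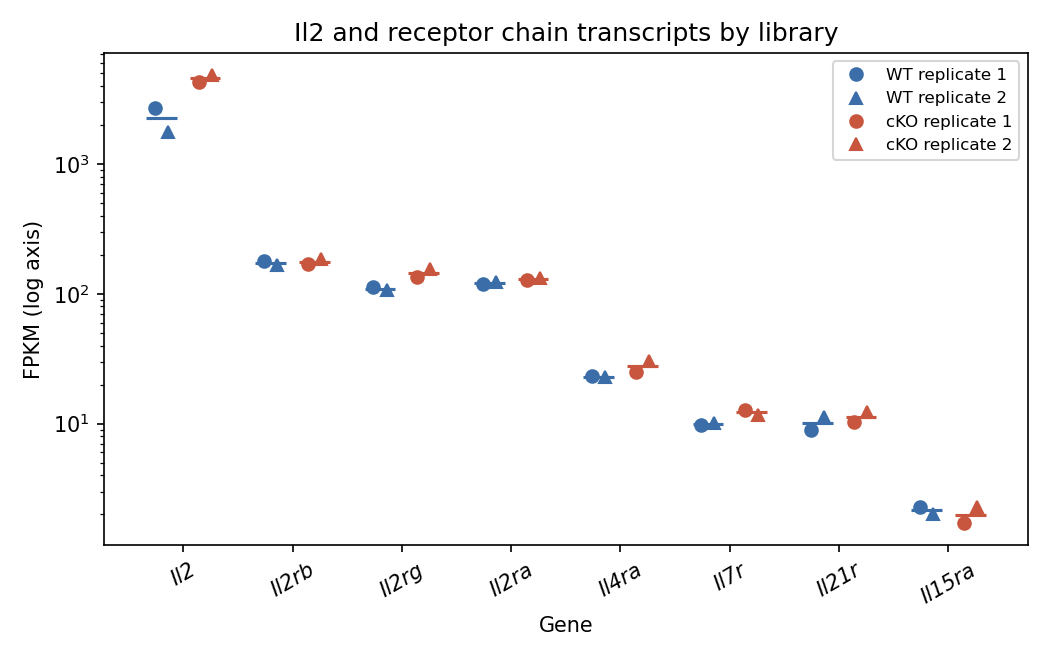
FPKM (y axis, log scale) of Il2 and 7 receptor chain genes (x axis) in each of the 2 WT and 2 cKO libraries, with bars at the means of the 2 libraries. Il2 lies between 1774 and 4829 FPKM, above every receptor gene, and Il15ra lies lowest, between 1.72 and 2.30 FPKM; Il9r, with at most 2 reads, is not drawn.

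The Il2 gene shares 1408 bases with Adad1, a gene of the opposite strand known from male germ cells, and the strand setting of the counting is not given in the sources used here. Adad1, which was chosen for mention after its values were seen, had 2.63 and 2.55 FPKM in WT and 7.38 and 7.11 FPKM in cKO. It rose by 1.20 ± 0.09 (SE) on the log2 scale (limma, adjusted p = 0.0206), and the call was lost without WT replicate 2 (adjusted p = 0.0504) and with no filter on low values (0.157). Adad1 rested on 159 to 490 reads per library, against 38783 to 107125 for Il2. Without the strand setting, how reads of the shared bases were assigned is not known. The WT libraries differed by 0.03 for Adad1 and by 0.62 for Il2 on this scale. By the distance of their centred log2(FPKM + 1) values over the 4 libraries, the genes nearest to Il2 among 6530 searched were the chemokine gene Ccl3 (distance 0.0849) and the peptide transporter gene Slc15a3 (0.116). Ccl3 had 321 and 202 FPKM in WT and 510 and 599 FPKM in cKO. With 4 libraries such likeness is a description of these libraries.

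Promoters of the 3 members with the highest fold changes are shown, since PMA and ionomycin activate factors known to bind the Il2 promoter. The 250 bases before the RefSeq start site (GRCm38.p6) are given 5′ to 3′ on the strand of the gene. Capitals mark matches, on either strand, to GGAAAA, the core bound by NFAT, to TGANTCA, bound by AP-1, or to TTCNNNGAA, bound by STAT factors. No 2 of the capital runs overlap.
Il2, chr3:37125955-37126204, minus strand: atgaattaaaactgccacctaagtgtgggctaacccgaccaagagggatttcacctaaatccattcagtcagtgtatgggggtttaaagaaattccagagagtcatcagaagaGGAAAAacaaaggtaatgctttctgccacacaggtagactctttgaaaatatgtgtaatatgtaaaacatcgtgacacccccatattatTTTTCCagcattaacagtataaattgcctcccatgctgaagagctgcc
Il2rg, chrX:101268256-101268505, minus strand: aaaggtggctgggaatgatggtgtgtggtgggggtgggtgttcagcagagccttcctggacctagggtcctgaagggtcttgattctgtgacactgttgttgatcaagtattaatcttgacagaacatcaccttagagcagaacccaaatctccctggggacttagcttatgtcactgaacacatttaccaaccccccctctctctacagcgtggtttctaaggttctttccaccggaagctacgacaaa
Il7r, chr15:9529877-9530126, minus strand: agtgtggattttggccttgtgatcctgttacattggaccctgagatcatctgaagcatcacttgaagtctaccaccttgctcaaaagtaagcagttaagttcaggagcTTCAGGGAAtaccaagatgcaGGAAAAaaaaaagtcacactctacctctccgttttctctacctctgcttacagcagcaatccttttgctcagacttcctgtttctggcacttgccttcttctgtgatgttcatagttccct
The Il2 window held GGAAAA at position -137 from the start and its reverse complement TTTTCC at position -48. The Il7r window held GGAAAA at position -121 and TTCAGGGAA at position -142, and the Il2rg window held none of the 3 motifs. RefSeq windows were found for 8 of the 9 members, and Il15ra has a pair of them. GGAAAA was in windows of 3 members (Il2, Il7r and Il15ra), TGANTCA in 1 (Il15ra) and TTCNNNGAA in 1 (Il7r). Among 32851 windows of the same length 20.4%, 6.75% and 7.02% held these motifs, and a match is a description of letters.

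The 3 chains of the IL-2 receptor were all well expressed, and their differences between genotypes were small beside that of Il2. Il2ra, the alpha chain gene (chromosome 2, 11642807 to 11693193, plus strand), had 120 and 124 FPKM in WT and 129 and 133 FPKM in cKO. Its groups did not overlap, yet the log2 fold change was 0.10 ± 0.10 (SE; 95% interval -0.14 to 0.35; limma, adjusted p = 0.57). Il2rb, the beta chain gene shared with the IL-15 receptor (chromosome 15, 78480553 to 78495066, minus strand), had 178 and 166 FPKM in WT and 170 and 185 FPKM in cKO. The groups overlapped, with a log2 fold change of 0.04 (95% interval -0.23 to 0.32; adjusted p = 0.83), whose sign turned in 4 of the 17 alternative settings. These intervals hold no change of 2-fold for either chain. Il2ra was not called in any alternative, and its value under quantile normalization was -0.00084. A short transcript model within Il2ra, Gm37881, is counted apart, at 12 and 13.2 FPKM in WT and 13.3 and 12.7 FPKM in cKO.

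Il2rg encodes the common gamma chain itself (chromosome X, 101264378 to 101268255, minus strand). It had 113 and 107 FPKM in WT and 135 and 155 FPKM in cKO, with both cKO libraries above both WT libraries. Its mean was 110 ± 3.72 FPKM in WT and 145 ± 14.0 FPKM in cKO (SD, n = 2), a ratio of 1.32. The log2 fold change was 0.39 ± 0.11 (SE; 95% interval 0.10 to 0.68) and did not pass (limma, adjusted p = 0.157). It passed without cKO replicate 1 (0.49, adjusted p = 0.0485) and without cKO replicate 2 (0.30, adjusted p = 0.0307), and had adjusted p = 0.705 and 0.806 without WT replicate 1 or 2. An omission leaves 1 library in a genotype, which is then assumed to vary like the other genotype's pair. Gm20489, a protein-coding model of the same strand, overlaps Il2rg by 3878 bases and averaged 0.0187 FPKM over the 4 libraries. How reads of the shared bases were assigned is not given, so the level of Il2rg and its ratios to other chains may depend on it.

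The order of the IL-2 receptor chains by FPKM, which is per length of gene, was not the same in the genotypes. Il2rb was highest in all 4 libraries. Il2ra was above Il2rg in both WT libraries and below it in both cKO libraries. The ratio of Il2rg to Il2ra within a library was 0.94 and 0.864 in WT and 1.05 and 1.16 in cKO. The ratio of Il2rg to Il2rb was 0.632 and 0.648 in WT and 0.797 and 0.838 in cKO, again without overlap. The ratio of Il2rb to Il2ra was 1.49 and 1.33 in WT and 1.32 and 1.39 in cKO, which overlap. An exact two-sided permutation test of the log2 ratio gave p = 0.333, the smallest that 2 libraries against 2 allow, for both ratios with Il2rg and p = 0.667 for Il2rb to Il2ra. Together the 3 chains made up 89.3% to 90.3% of the summed FPKM of the 8 receptor genes in every library.

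**Figure D2:**
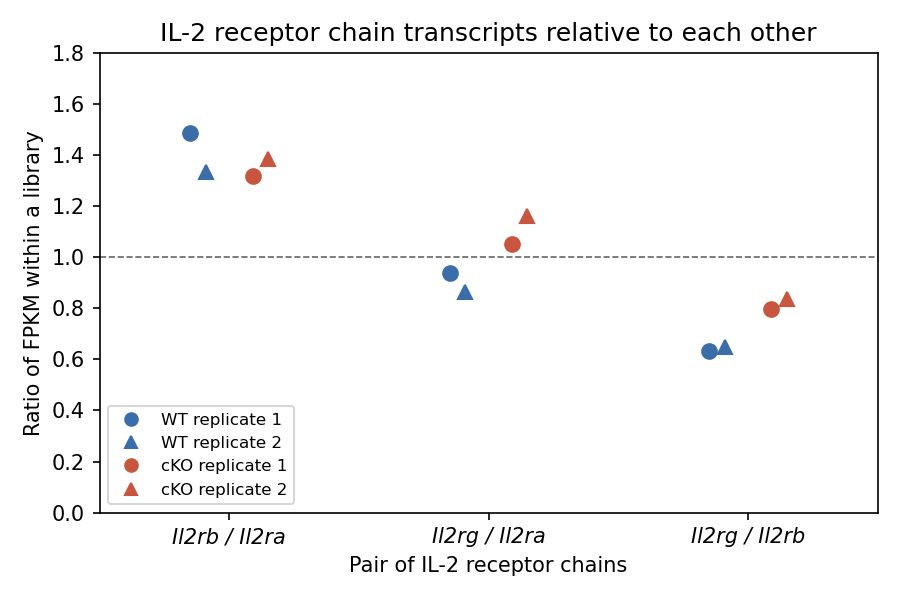
Ratio of FPKM between pairs of IL-2 receptor chains within each library (y axis, starting at 0) for 3 pairs (x axis). The Il2rg to Il2ra ratio lies under 1 in both WT libraries (0.94 and 0.864) and above 1 in both cKO libraries (1.05 and 1.16).

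The private chains of the other receptors were less abundant, and none passed the test. Il7r, the IL-7 receptor alpha chain of naive and memory T cells (chromosome 15, 9506161 to 9529876, minus strand), had 9.77 and 10.1 FPKM in WT and 12.8 and 11.6 FPKM in cKO. The groups did not overlap, and the log2 fold change was 0.27 ± 0.09 (SE; 95% interval 0.03 to 0.51; limma, adjusted p = 0.207), with a pass without cKO replicate 2 (0.34, adjusted p = 0.0357). Il4ra, the IL-4 receptor alpha chain (chromosome 7, 125552120 to 125579474, plus strand), had 23.2 and 22.9 FPKM in WT and 24.9 and 30.6 FPKM in cKO. Here too the groups did not overlap, but cKO replicate 1 lay close to WT, and the log2 fold change was 0.25 ± 0.12 (SE; 95% interval -0.06 to 0.57; adjusted p = 0.33). Its value ran from 0.11 without cKO replicate 2 to 0.39 without cKO replicate 1. The polarization medium of both genotypes held an antibody to its ligand, IL-4.

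Il21r, the receptor for the Th17 cytokine IL-21 (chromosome 7, 125603429 to 125633570, plus strand), had 9.01 and 11.2 FPKM in WT and 10.3 and 12.3 FPKM in cKO. These groups overlapped (log2 fold change 0.14, 95% interval -0.22 to 0.51; limma, adjusted p = 0.59). The value ran from 0.00056 without WT replicate 1 to 0.29 without WT replicate 2. Il15ra, the chain that binds and presents IL-15 (chromosome 2, 11705290 to 11734317, plus strand), had 2.30 and 2.02 FPKM in WT and 1.72 and 2.26 FPKM in cKO, on 155 to 200 reads per library. It was the tested member with a fold change below 0 (-0.09, 95% interval -0.43 to 0.26; adjusted p = 0.74), and the sign turned without cKO replicate 1 (0.05). Il9r, the IL-9 receptor chain (chromosome 11, 32187541 to 32200279, minus strand), had 0 reads in both WT libraries and 2 and 1 reads in cKO. That is under the limit of 3 reads that a count of 0 allows, equal to 0.0298 to 0.0317 FPKM, so no fold is given and Il9r was not tested.

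By level, Il2rb came after Il2, then Il2ra and Il2rg, then Il4ra, and this order held in every library apart from the exchange of Il2ra and Il2rg. Il7r and Il21r followed at similar levels and changed places between libraries of the same genotype, so they do not differ beyond their spread. Il15ra stood below them and Il9r at the bottom. Family members that lie side by side on a chromosome differed widely in level. Il2ra and Il15ra are neighbours on chromosome 2, with 12096 bases and no listed gene between them, yet Il2ra was 52.1 to 75.0 times as high in FPKM. Il4ra and Il21r are neighbours on chromosome 7, 23954 bases apart with no gene between them, and Il4ra was 2.04 to 2.58 times as high.

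**Figure D3:**
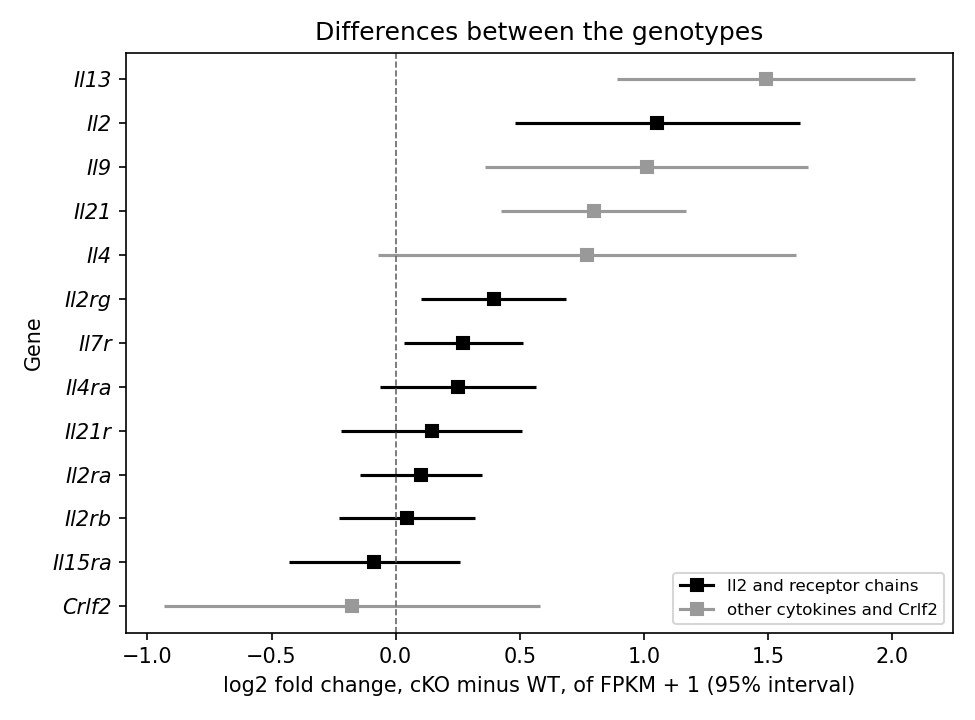
log2 fold change of FPKM + 1, cKO minus WT (x axis), with the 95% interval of the limma fit, for Il2 and 7 receptor chains (black) and for other cytokines of the group and Crlf2 (grey). Il2 stands at 1.05 and Il2rg at 0.39, while the intervals of Il2ra, Il2rb, Il21r, Il15ra and Il4ra include 0; no gene drawn passed the adjusted threshold.

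As a family, 8 of the 9 genes had a mean of at least 1 FPKM and were tested, and none was called higher or lower by limma at an adjusted p under 0.05. Of 10562 genes tested 113 (1.07%) were called, with 0.814% of the genes tested higher in cKO and 0.256% lower. A total of 3 members, Il2, Il2rg and Il7r, had an unadjusted p under 0.05, against 19.8% of all tested genes, and voom called Il2 alone, higher, against 5.14% of all (2.71% higher and 2.43% lower). Both cKO values lay above both WT values for 5 of the 8, namely Il2, Il2rg, Il2ra, Il4ra and Il7r, and for 27.2% of all tested genes. Both cKO values lay below for none of the 8 and for 28.7% of all. The fold change was above 0 for 7 of the 8, against 49.4% of all tested genes, and the median log2 fold change was 0.20 against -0.0034 for all. With cKO replicate 1 left out 1 member (Il2rg) was called higher, against 1.4% of all tested genes. With cKO replicate 2 left out 2 members (Il2rg and Il7r) were called higher, against 13.2%. Without WT replicate 1 or 2 none was, against 0.625% and 0.464%.

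The libraries differ in a trend with the GC content of transcripts, which runs from 39.4% in Il2 to 55.8% in Il4ra within the family. Over all tested genes the difference between cKO replicates 1 and 2 followed GC content (Spearman's rho = -0.529 across genes, which are not independent replicates), and that between the WT replicates did so less (0.121). Of the 8 tested members, 7 were lower in cKO replicate 1 than in cKO replicate 2, against 49.4% of all tested genes. Il4ra differed by -0.28 between them and the AT-rich Il7r (40.5% GC) by 0.14, whereas the AT-rich Il2 differed by -0.16. With the GC trend of each library removed, the log2 fold change was 0.97 for Il2, 0.39 for Il2rg, 0.33 for Il4ra and 0.20 for Il7r (adjusted p = 0.114, 0.111, 0.0734 and 0.15), and no member was called.

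**Figure D4:**
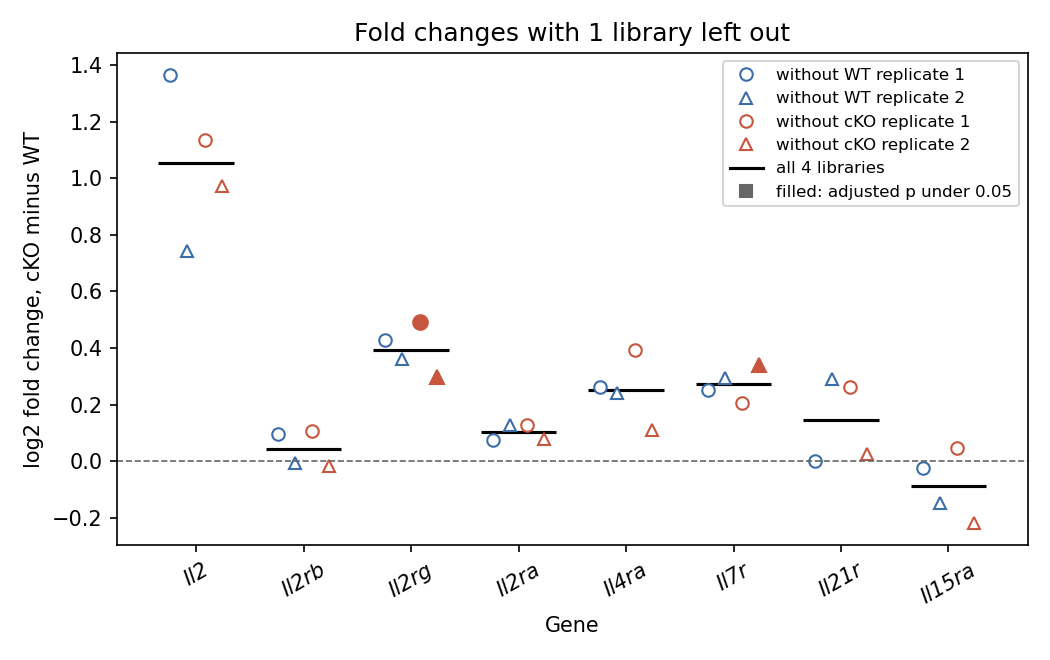
log2 fold change, cKO minus WT (y axis), of Il2 and 7 receptor chains (x axis) with each library left out in turn (symbols) and with all 4 libraries (bars); filled symbols passed an adjusted p of 0.05. Il2 runs from 0.74 to 1.36, Il2rg from 0.30 to 0.49, and Il2rb and Il15ra lie on both sides of 0.

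A list of 9 related genes held the other common gamma chain cytokines (Il4, Il7, Il9, Il15 and Il21), the cytokine genes Il13 and Tslp, whose receptors use Il4ra and Il7r without the common gamma chain, and the partner chains Il13ra1 and Crlf2. Of these 5 were tested and none was called by limma. An unadjusted p under 0.05 was found for 3 of them (19.8% of all tested genes), and voom called 2 higher, Il13 and Il21 (2.71% of all). Il21, which lies beside Il2 on chromosome 3 with no protein-coding gene in the 96799 bases between them, had 138 and 117 FPKM in WT and 244 and 202 FPKM in cKO. Its log2 fold change was 0.80 ± 0.15 (SE; limma, adjusted p = 0.0743), and voom called it (adjusted p = 0.0257). Il13, a Th2 cytokine gene, had 1.02 and 0.348 FPKM in WT and 3.10 and 4.24 FPKM in cKO, on 8 to 99 reads. Its log2 fold change was 1.49 ± 0.24 (SE; limma, adjusted p = 0.0611), and the size depended on the scale, at 2.40 with a pseudocount of 0.1, 0.61 with a pseudocount of 5 and 2.55 by voom (adjusted p = 0.0303). Il9, the IL-9 gene, had 1.91 and 0.781 FPKM in WT and 4.04 and 3.17 FPKM in cKO, on 8 to 44 reads. Its log2 fold change was 1.01 (limma, adjusted p = 0.125), with 1.47 at a pseudocount of 0.1 and 0.44 at 5. Il4 had 0.50 and 0.469 FPKM in WT and 2.57 and 0.798 FPKM in cKO, on 11 to 64 reads. Its log2 fold change was 0.77 (limma, adjusted p = 0.282), with 1.41 at a pseudocount of 0.1 and 0.27 at 5. Most of the excess was in cKO replicate 1, and without that library the value was 0.28.

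With each library left out the log2 fold change ran from 0.66 to 0.93 for Il21 and from 1.20 to 1.78 for Il13. It ran from 0.28 to 1.26 for Il4 and from 0.66 to 1.36 for Il9. For these 4 cytokines both cKO libraries lay above both WT libraries, as they did for 27.2% of all tested genes. Crlf2, the TSLP receptor chain that pairs with Il7r, had 88.3 and 84.9 FPKM in WT but 55.6 and 105 FPKM in cKO, so the cKO libraries lay on either side of WT (log2 fold change -0.17, limma, adjusted p = 0.76). Without cKO replicate 2 the value of Crlf2 was -0.63, and without cKO replicate 1 its sign turned (0.28). The ligand genes Il7, Il15 and Tslp and the IL-13 receptor gene Il13ra1 had at most 3 reads in any library, and Il7 had 0 reads in all 4.

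Downstream of the receptors, the kinases and STAT factors that carry the signal were present in every library. Of 13 transducer and feedback genes 0 were called by limma, against 1.07% of all tested genes. Of them 2 had an unadjusted p under 0.05 (19.8% of all tested genes), and voom called 1 higher, Cish (2.71% of all). Jak3, the kinase that binds the common gamma chain, had 57.5 and 53.2 FPKM in WT and 39.5 and 65.4 FPKM in cKO, and Stat5b, a STAT factor of IL-2, had 50.1 and 45.1 FPKM in WT and 44.6 and 52.2 FPKM in cKO. Both overlapped between genotypes. Cish, a STAT5-induced feedback inhibitor, had 29.1 and 27.0 FPKM in WT and 39.97 and 49.3 FPKM in cKO (log2 fold change 0.64 ± 0.13 SE; limma, adjusted p = 0.087; voom, adjusted p = 0.0337). It passed in limma without cKO replicate 1 (adjusted p = 0.0465), without cKO replicate 2 (0.0199) and with the GC trend removed (0.0379), and missed without WT replicate 1 (0.358) or 2 (0.549). Without cKO replicate 2 the log2 fold change was -0.47 for Jak3 and -0.43 for Socs1, and without cKO replicate 1 it was 0.24 and 0.20. Stat3, which carries IL-6 and IL-21 signals and overlaps Stat5a, had 16.2 and 15.0 FPKM in WT and 18.2 and 21.3 FPKM in cKO (0.32, adjusted p = 0.215). The median log2 fold change of the 13 genes was 0.02.

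Of 22 genes known to respond to IL-2 and STAT5, 20 were tested and none was called by limma, while 9 had an unadjusted p under 0.05 (19.8% of all tested genes). voom called 5 higher (2.71% of all), the cytokine genes Lif and Osm, the checkpoint receptor gene Ctla4, the survival gene Bcl2l1 and Cish, and none lower. Both cKO values lay above both WT values for 10 of the 20 and below for 2, against 27.2% and 28.7% of all tested genes. The median log2 fold change was 0.17. Gzmb, the cytotoxic protease gene, had 4.56 and 2.99 FPKM in WT and 6.07 and 6.71 FPKM in cKO, a log2 fold change of 0.65 ± 0.18 (SE; limma, adjusted p = 0.139) that ran from 0.41 without WT replicate 2 to 0.89 without WT replicate 1. The median of the 20 was 0.25 without cKO replicate 1 and 0.14 without cKO replicate 2. It was 0.23 without WT replicate 1 and 0.14 without WT replicate 2.

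Among 18 tested regulators of Il2 transcription, 1 was called by limma, against 1.07% of all tested genes. Of the 18, 5 had an unadjusted p under 0.05 (19.8% of all). voom called 3 higher, Egr1, Fos and Rel (2.71% of all), and 0 lower. Egr1, an early response transcription factor gene, rose from 16.05 and 16.09 FPKM in WT to 33.4 and 42.5 FPKM in cKO (log2 fold change 1.18 ± 0.14 SE; limma, adjusted p = 0.0391). The call was lost without WT replicate 1 or 2 (adjusted p = 0.1 and 0.128), with no filter on low values (0.176) and with TPM scaling (0.0699). Fos, an AP-1 subunit gene, had 3.48 and 3.12 FPKM in WT and 5.27 and 5.83 FPKM in cKO (0.61 ± 0.10 SE; adjusted p = 0.0661; voom, adjusted p = 0.0404). voom also called Rel, the NF-kB subunit gene, at 13.3 and 11.8 FPKM in WT and 18.8 and 17.9 FPKM in cKO (adjusted p = 0.0343). Nfkb1, another NF-kB subunit gene, lay lower in cKO, at 150 and 133 FPKM in WT and 107 and 123 FPKM in cKO (limma, adjusted p = 0.271). The NFAT genes Nfatc1 and Nfatc2 overlapped between genotypes. Nfatc3 had 9.64 and 10.2 FPKM in WT and 9.01 and 8.85 FPKM in cKO (adjusted p = 0.418). Both cKO values lay above both WT values for 7 of the 18 genes and below for 5, against 27.2% and 28.7% of all tested genes. The median of the 18 genes was -0.03. Without cKO replicate 2 limma called 4 of them higher and 5 lower, in a setting where 13.2% of all tested genes were called higher and 15.3% lower.

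**Figure D5:**
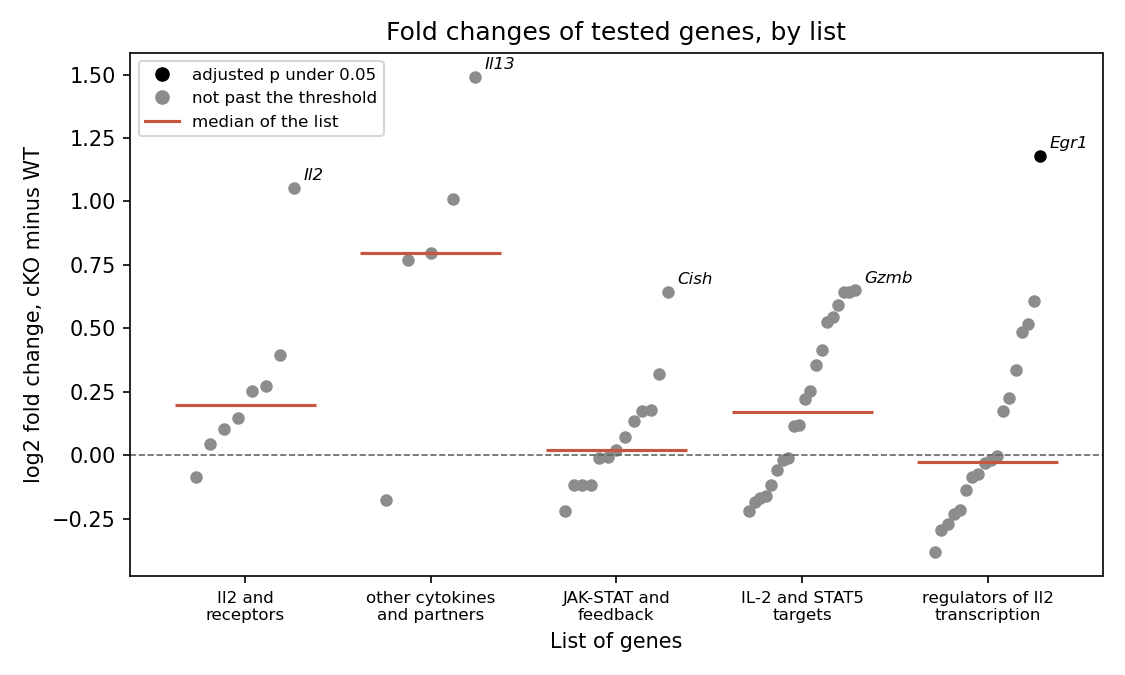
log2 fold change, cKO minus WT (y axis), of each tested gene in 5 lists (x axis), with the median of each list as a bar and the gene of highest value named. Egr1 at 1.18 is the point past the adjusted threshold, and the medians are 0.20 for Il2 and its receptors, 0.80 for the other cytokines and partners, 0.02 for JAK-STAT genes, 0.17 for targets and -0.03 for regulators.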

How the data were processed

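The deposited table holds FPKM per gene for 4 libraries (2 WT, 2 cKO), which the authors computed, and the gene length in bases. Per the submitters' processing notes, the build was GRCm38 (also named mm10) and featureCounts (1.5.0-p3) was used. No source used here gives the aligner, annotation release or strand setting. Multiplied by gene length and by the library total that the low values imply, 100% of the values fell on whole read numbers within 0.01 read, so reads were recovered. They gave the depths and the voom alternative.

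The test was limma 3.58.1 (R 4.3.3) on log2(FPKM + 1), pseudocount 1, for the 10562 genes averaging 1 FPKM or more, with a variance trend and no block, two-sided, with Benjamini-Hochberg adjustment over all tested genes at 0.05. A fold change on this scale understates low genes. The members and lists were chosen with earlier results of these data known. The genes named were all members, the other cytokines and partners, every called gene and the 2 largest changes of each other list, and the 3 nearest patterns of Il2 and Il2ra (mean of at least 5 FPKM, predicted genes left out), of which 1 is not reported here. Jak3, Stat5b, Socs1, Cd4, Zap70, the genes voom called, Nfkb1, Nfatc1, Nfatc2, Nfatc3, Ppp2cb, Ppp2r1a, Adad1, Gm37881 and Gm20489 were chosen after their values were seen. Transcript GC content came from GENCODE M21 and promoters from RefSeq GRCm38.p6. The procedure was tested on simulated data. Alternatives covered the pseudocount, filter, scaling, variance prior, replicate block, omission of each library, voom and a GC correction.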

Additional observations from a re-analysis of the deposited data

How the results depend on the processing

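With 17 alternative settings, the fold changes of Il2, Il2rg, Il7r, Il4ra and Il21r kept their sign in all of them. Members called higher, 0 with all libraries, were 1 by voom on recovered reads and 0 to 2 with each library left out; members called lower were 0 throughout. The value of Il21r came close to 0 without WT replicate 1 (0.00056). The sign turned for Il2rb with TPM scaling (-0.048), quantile normalization (-0.078), without WT replicate 2 (-0.0071) and without cKO replicate 2 (-0.018), for Il2ra with quantile normalization (-0.00084), for Il15ra without cKO replicate 1 (0.046), and for Crlf2 without cKO replicate 1 (0.28) and with the GC correction, with or without the block (0.022). With each library left out Il2rb ran from -0.018 to 0.11, Il15ra from -0.22 to 0.046 and Crlf2 from -0.63 to 0.28. Over all genes, 86 were called higher and 27 lower. The counts were 0 and 0 with no filter on low values (3012 at an unadjusted p under 0.05 in limma), 25 and 1 with TPM scaling, 286 and 257 by voom, 250 and 231 with the GC correction, and 15 and 49 lower with a pseudocount of 0.1 and 5. With each library left out they ran from 49 to 1390 higher and from 6 to 1614 lower, the highest counts without cKO replicate 2; the cause was not tested. The replicate numbers are not stated to pair libraries, and the correlation over genes of the replicate differences of WT and cKO was -0.093. With the replicate block 154 were higher and 73 lower, and with the GC correction and the replicate block 0 and 0 (2065 at an unadjusted p under 0.05 in limma), with no member called in either; Il13 and Il9 were called with the block (adjusted p = 0.0339 and 0.0359), and Egr1 and Adad1 were lost with the GC correction and the block (0.065 each). With 2 libraries per genotype, the precision rests on the variance shared across genes.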

Other observations

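The genes nearest in pattern to Il2ra over the 4 libraries were Fubp3 (distance 0.0093), Atg7 (0.010) and Nfil3 (0.019), each with a log2 fold change near 0.10 like that of Il2ra, and none passed the test (limma, adjusted p = 0.534, 0.557 and 0.519). Nfil3, a transcription factor gene, had 8.50 and 8.71 FPKM in WT and 9.09 and 9.57 FPKM in cKO.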
